A study of Homo sapiens with 4 samples.

Results

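Nicotinic acetylcholine receptor subunits were followed in SH-SY5Y cells, a human neuroblastoma line of sympathetic origin, after silencing of TSPAN8, which encodes the cell-surface tetraspanin 8. Members were all probe sets that the platform annotation gives to 1 of 10 listed subunit genes alone. This found 13 probe sets of 9 genes, out of 54613 probe sets tested on the array. CHRNA4 was not analysed here. The genes were chosen by their knockdown minus control values in these same arrays, in which CHRNA3 was lower at 3 probe sets. The knockdown minus control values of the subunits are therefore descriptions and are given without p-values of their own. Counts of subunit sets under a p threshold, given below, come from the contrast that chose the genes and test nothing.

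There were 2 TSPAN8 knockdown samples and 2 transfection control samples, with 1 array for each, all of the same line in the same serum-containing medium. All cells were kept for 72 h in an RNA interference experiment that used self-delivering (Accell) reagents. What the control cells were given, and the sequence of the interfering RNA, are not given in the sources used here. Nothing says that the samples of a group were separate cultures, so the spread between them may be technical.

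Nicotinic receptors are cation channels opened by acetylcholine and built as rings of subunits around a central pore. In receptors that pair alpha subunits with CHRNB2 or CHRNB4, the alpha subunit carries the principal face of the binding site and the beta subunit completes it. CHRNA5 and CHRNB3 are accessory subunits that join receptors made by the others. CHRNA3 with CHRNB4, often with CHRNA5, forms the ganglionic receptor that carries fast transmission in sympathetic neurons, the lineage from which SH-SY5Y derives.

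CHRNA5, CHRNA3 and CHRNB4 lie next to each other on chromosome 15 in RefSeq, and the spans of CHRNA5 and CHRNA3 overlap. The stretches of 250 bases that precede the RefSeq starts of CHRNA3 and CHRNB4 are shown because CHRNA3 was the subunit with the lower signal and CHRNB4 is its neighbour and partner. They come from build GRCh38.p14, minus strand, chr15:78620997-78621246 for CHRNA3 and chr15:78641211-78641460 for CHRNB4, and capitals mark each GGGCGG, the core of a GC box, on either strand.
CHRNA3: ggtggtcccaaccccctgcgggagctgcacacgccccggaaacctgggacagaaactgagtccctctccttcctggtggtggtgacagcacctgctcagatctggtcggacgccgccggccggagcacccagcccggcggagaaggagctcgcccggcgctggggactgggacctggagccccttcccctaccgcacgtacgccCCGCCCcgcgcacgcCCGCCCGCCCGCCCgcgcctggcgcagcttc
CHRNB4: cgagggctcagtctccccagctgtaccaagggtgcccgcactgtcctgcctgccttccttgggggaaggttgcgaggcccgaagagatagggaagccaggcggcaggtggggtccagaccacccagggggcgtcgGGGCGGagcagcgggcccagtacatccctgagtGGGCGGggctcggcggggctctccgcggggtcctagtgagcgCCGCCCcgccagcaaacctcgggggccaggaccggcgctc

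Both stretches were rich in G and C, at 73.6% for CHRNA3 and 72.4% for CHRNB4, where the median of 35114 such stretches was 58.0%. CHRNA3 held 4 matches to GGGCGG, all on the opposite strand, starting 46, 31, 27 and 23 bases before the start site, and the last 3 of these overlap. CHRNB4 held 3 matches, starting 115, 82 and 40 bases before the start site. At least 1 match occurred in 42.6% of all stretches, 4 or more in 7.63% and 3 or more in 13.9%. CAGCTG, an E-box that reads the same on both strands, was found 1 time for CHRNB4 and in 14.0% of all stretches, and TATAAA on either strand was found in neither gene and in 10.7% of all. Of the other members in the RefSeq table, CHRNB1 held 2 matches to GGGCGG and CHRNB2 and CHRNA9 held 0. These matches describe letters and were not tested as binding sites.

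The arrays served as a check of the labels before the subunits were read. TSPAN8 stood at 6.25 and 6.35 (log2) in knockdown and at 7.52 and 7.62 in control, a difference of -1.27 ± 0.062 (SE; limma, adjusted p = 0.0026), and it was the only probe set to pass at an adjusted p of 0.05 (0.00183% of 54613). Arrays of a group correlated across probe sets at 0.998 in both groups, and arrays of different groups at 0.997 to 0.998. Of 9 measured markers of noradrenergic neuroblasts, 8 stood at percentiles of 70.3 to 99.6 of all probe sets on every array, while TH, the first enzyme of catecholamine synthesis, stood at 16.2 to 26.2. Skeletal muscle markers, fixed because CHRNB1 belongs to the muscle receptor, stood between percentiles 24.3 and 55.6. The 8 mesenchymal or fibroblast markers stood between percentiles 38.8 and 99.7, so high signal was not limited to the noradrenergic markers. Their median percentiles were 91.3 and 87.5 in knockdown and 87.3 and 86.1 in control.

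CHRNA3, the ligand-binding subunit of the ganglionic receptor, was lower in the knockdown samples at each of its 3 probe sets. Its brightest probe set, 210221_at, read 11.98 and 12.06 (log2) in knockdown and 12.20 and 12.26 in control. The 2 groups did not overlap, and the gap between them exceeded the gap within either, which was 0.082 in knockdown and 0.061 in control. The means were 12.02 ± 0.058 (SD, n = 2) and 12.23 ± 0.043 (SD, n = 2), a difference of -0.21 ± 0.057 (SE), so that 86.4% of the control signal, background and all, was left. In bulk RNA, fewer cells with the transcript and less transcript per cell cannot be told apart.

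The other CHRNA3 probe sets were lower too, which was known when the genes were chosen and so adds no support. Probe set 211587_x_at read 10.04 and 10.07 in knockdown and 10.29 and 10.26 in control, a difference of -0.22 ± 0.051 (SE) with 86.0% of the control signal left. Probe set 211772_x_at read 9.38 and 9.46 in knockdown and 9.62 and 9.61 in control, a difference of -0.19 ± 0.054 (SE) with 87.4% left. The suffix x marks a set whose probes may also match other transcripts, and all 3 sets measured the same RNA samples, so they are not replicates of the knockdown. Which strand or exon each probe matches, where CHRNA3 and CHRNA5 overlap, was not examined.

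**Figure D1:**
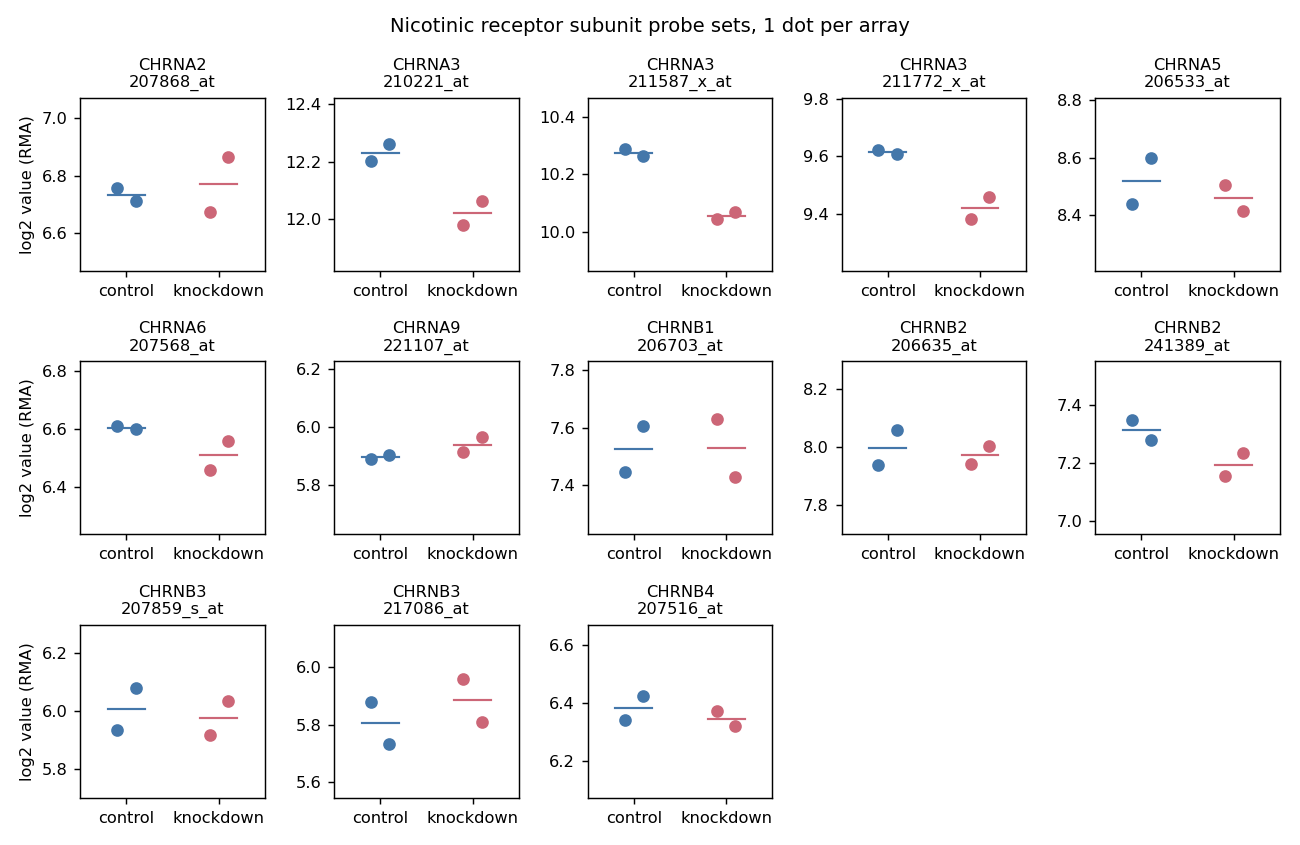
Log2 value (RMA) of each of the 13 probe sets on each array, 1 panel per probe set, with control arrays in blue, knockdown arrays in red and bars at the group means (n = 2 each); every panel spans the same width on its vertical axis. The 3 CHRNA3 panels show both knockdown arrays below both control arrays, with group means of 12.02 and 12.23 at the brightest set.

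Against the mean of the control arrays, CHRNA3 at 210221_at stood at -0.25 in knockdown replicate 1 and at -0.17 in knockdown replicate 2. At 211587_x_at these were -0.23 and -0.21, and at 211772_x_at -0.23 and -0.16. Replicate 1 was thus the lower of the pair at all 3 sets, and the lone replicate 2 still lay below both controls. Differences as low or lower were reached by 0.749%, 0.615% and 1.13% of all probe sets for the sets in that order, or 409, 336 and 616 of 54613. CHRNA3 thus lay in the lower tail of the array without standing apart from it. As it was chosen for these low values, the shares describe the choice and test nothing.

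CHRNA5 and CHRNB4, which share the gene cluster and the ganglionic receptor with CHRNA3, had overlapping arrays. CHRNA5, the accessory subunit, read 8.51 and 8.42 in knockdown and 8.44 and 8.60 in control, a difference of -0.056 ± 0.069 (SE, 95% interval -0.22 to 0.10). CHRNB4, the beta partner, read 6.37 and 6.32 in knockdown and 6.34 and 6.42 in control, a difference of -0.037 ± 0.056 (SE, 95% interval -0.17 to 0.094). The CHRNB4 set stood at percentiles 37.1 to 43.6 of all probe sets, below the array median, and CHRNA5 at 80.0 to 81.3. Whether these differences depart from that of CHRNA3 was not tested.

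CHRNB2, the beta subunit of the main brain receptor and another partner of CHRNA3, differed between its 2 probe sets. Set 206635_at read 7.94 and 8.00 in knockdown and 7.94 and 8.06 in control, a difference of -0.024 ± 0.061 (SE) with overlapping arrays. Set 241389_at read 7.16 and 7.23 in knockdown and 7.35 and 7.28 in control, a difference of -0.12 ± 0.057 (SE) with both knockdown arrays below both controls. The first of these had the higher mean over the arrays.

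Among the subunits of more restricted receptors, CHRNA6, found mainly in catecholamine neurons of the brain, read 6.46 and 6.56 in knockdown and 6.61 and 6.60 in control. Its arrays did not overlap, at a difference of -0.096 ± 0.056 (SE, 95% interval -0.23 to 0.035). CHRNA2, a brain alpha subunit, read 6.67 and 6.86 in knockdown and 6.76 and 6.71 in control, so that the knockdown arrays enclosed the control arrays (0.036 ± 0.071, SE). CHRNA9, a subunit of receptors in the inner ear, read 5.91 and 5.96 in knockdown and 5.89 and 5.90 in control (0.042 ± 0.052, SE), without overlap in the higher direction. CHRNA9 stood at percentiles 14.6 to 17.6 of the probe sets, where log2 values from summarised probes compress a change. The same limit holds for CHRNB3 and CHRNB4, which also stood below the array median. It may hold for CHRNA6 too, which stood near that median, at percentiles 45.1 and 48.1 in knockdown and 50.9 and 50.7 in control.

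CHRNB3, the accessory subunit that often accompanies CHRNA6, gave differences of opposite sign at its 2 sets, -0.032 ± 0.069 (SE) at 207859_s_at and 0.079 ± 0.073 (SE) at 217086_at. Its values ran from 5.73 to 6.08 over both sets and all arrays, at percentiles 6.76 to 25.0. CHRNB1, the beta subunit of the muscle receptor, read 7.63 and 7.43 in knockdown and 7.45 and 7.61 in control, a difference of 0.0038 ± 0.082 (SE). Its within-group gaps of 0.20 and 0.16 were the widest of the 13 sets in knockdown and the second widest in control.

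**Figure D2:**
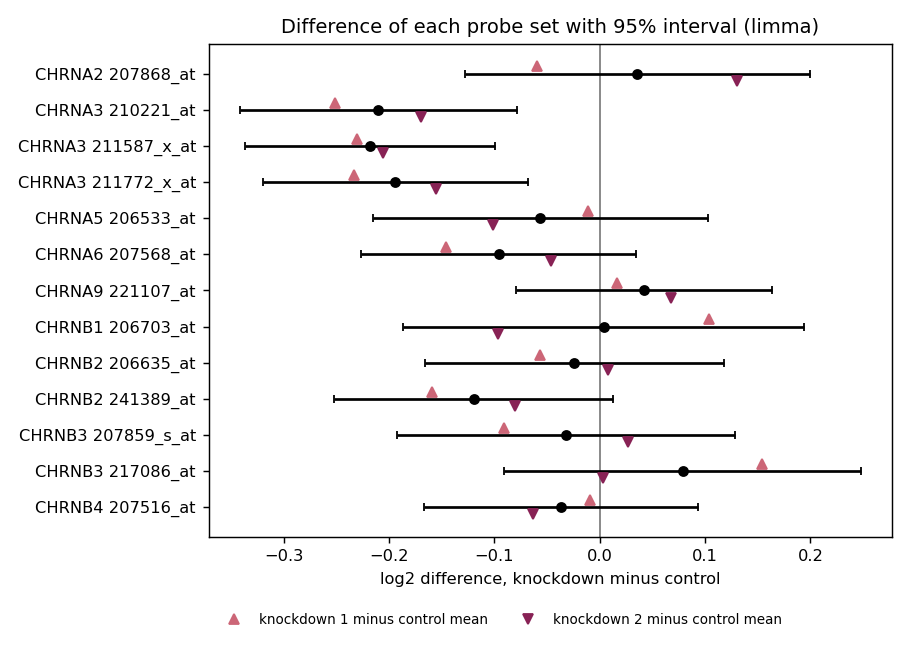
Knockdown minus control (log2) of the 13 probe sets; black dots with bars are limma's estimates with 95% intervals from 2 arrays per group, upward triangles are knockdown replicate 1 and downward triangles replicate 2, each minus the control mean. The 3 CHRNA3 sets lie between -0.22 and -0.19 and the other 10 between -0.12 and 0.079.

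Over the 13 probe sets, 9 had a value below control and 4 above, where 50% of all probe sets were below. The median over the sets was -0.037, and 0.0064 without control replicate 2. With each gene at its highest-mean set, the median of the 9 genes was -0.032, beside -0.0094 over 19775 genes. Knockdown arrays lay below control arrays at 5 sets (19.8% of all probe sets), 3 of them from CHRNA3, and above at 1 (17.7% of all). None passed at an adjusted p of 0.05 (limma, 0 of 13). At an unadjusted p under 0.05 there were 3 lower, all from CHRNA3 (4.12% of all probe sets), and 0 higher (3.72% of all). As this contrast chose the genes, nothing is read from these counts.

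Markers of other cell types were set beside the CHRNA3 values. Of 8 mesenchymal or fibroblast markers, each at its highest-mean set, 6 were above control, where 8787 of all 19775 genes were above. Their medians were 0.30 and 0.047 in knockdown replicates 1 and 2, beside 0.031 and -0.031 in control replicates 1 and 2. Their mean level was 9.91 and 9.59 (log2) in knockdown and 9.60 and 9.50 in control. COL3A1, a fibrillar collagen gene, read 9.46 and 9.02 in knockdown and 8.82 and 8.77 in control. Knockdown replicates 1 and 2 had CHRNA3 at -0.25 and -0.17, at 210221_at. Of 9 noradrenergic markers, 7 were below control, where 10988 of all 19775 genes were below. Their medians were -0.054 and -0.063 on the knockdown arrays. DBH, the noradrenaline-synthesising enzyme, was at -0.35 (0.037 at its other set) and the granule protein CHGA at -0.29, both with knockdown arrays below control arrays and farther from 0 than CHRNA3. The 3 measured Schwann cell precursor markers had a median difference of 0.0049. The part of these markers in the CHRNA3 values was not tested.

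**Figure D3:**
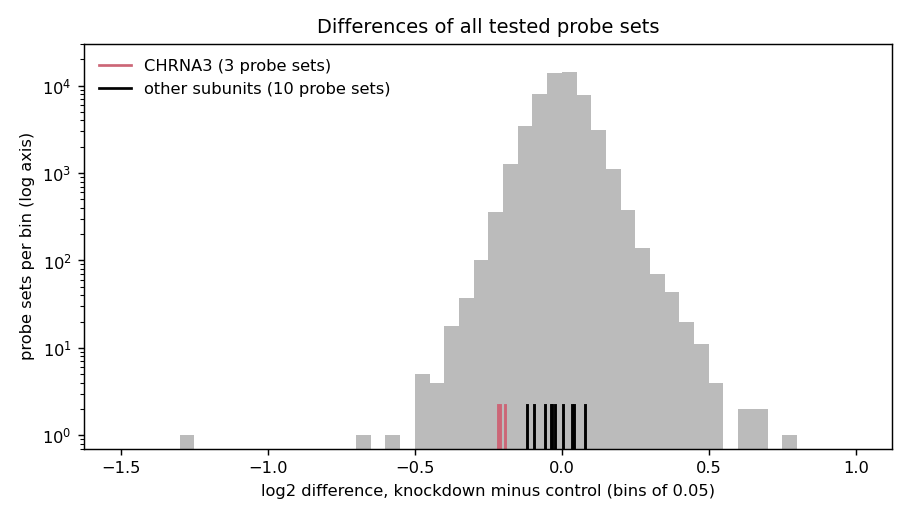
Number of probe sets (log axis) by knockdown minus control difference (log2, bins of 0.05) for all 54613 probe sets, with ticks for CHRNA3 in red and the other subunit sets in black. CHRNA3 lies between -0.22 and -0.19, below the other subunits, which run from -0.12 to 0.079; the lone bar at the far left is TSPAN8 at -1.27.

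The genes whose 4-array profile was nearest to that of CHRNA3 at 210221_at, by Euclidean distance of values centred on each set's own mean, were PEX5L (0.011), TAF15 (0.012) and FBXO32 (0.013). This search ran over 41078 probe sets of named genes with 4 points each. PEX5L differed by -0.20, TAF15 by -0.21 and FBXO32 by -0.21 between the groups, which follows from a search for profiles near that of CHRNA3. FBXO32 stood at percentiles 19.6 to 36.2 of all probe sets. Among all 54612 other probe sets, the CHRNA3 sets 211772_x_at and 211587_x_at ranked 171 and 392 in nearness. CHRNB2 ranked 3132 at 241389_at and 12986 at its brighter set 206635_at, CHRNB4 ranked 15035 and CHRNA5 ranked 17630.

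Genes around the receptor were read from 7 lists with 58 measured genes, which also hold transcription factors, chromosome neighbours and other channels, each gene at its probe set with the highest mean. None of the 58 passed over all probe sets (limma, adjusted p of 0.05, which 0.00506% of genes passed). At an unadjusted p under 0.05 there were 3 lower (5.57% of all genes) and 0 higher (2.39% of all). Their median was -0.0075, beside -0.0094 over all genes.

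Subunits outside the member list were CHRNA1, CHRNA10, CHRND, CHRNE and CHRNG, with a median of 0.020. The muscle subunits CHRNE (0.075) and CHRND (0.088) had the smallest p of these, with adjusted p of 0.77 and 0.80 (limma). They stood between percentiles 28.8 and 57.9 of the probe sets together with the others of this list. CHRNA7 was not read, since its probe set is annotated to CHRFAM7A as well.

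Proteins that assemble, move or modulate nicotinic receptors (17 measured) had 9 genes below control and 8 above, with a median of -0.017. LY6E, a membrane-anchored protein of the family to which the receptor modulator LYNX1 belongs, read 7.06 and 6.98 in knockdown and 7.25 and 7.13 in control, a difference of -0.17 ± 0.062 (SE; limma, adjusted p = 0.61). LY6H, a neuronal relative, was at 0.16 ± 0.068 (SE; limma, adjusted p = 0.64), at percentiles 14.3 to 28.3 of the probe sets. RIC3, a chaperone of nicotinic subunits, was at 0.015, and the chaperone gene TMEM35A at 0.15, with 9.57 and 9.26 in knockdown against 9.30 and 9.23 in control. HSPA5, the main chaperone of the endoplasmic reticulum, was at -0.25 with overlapping arrays, 12.54 and 13.11 in knockdown against 12.92 and 13.23 in control. RIC3, TMEM35A and HSPA5 were picked after their values were seen.

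Transcription factors of autonomic neurons (12 measured) had 10 genes below control and 2 above, where 10988 of all 19775 genes were below, with a median of -0.038. PHOX2A, HAND2, GATA2, GATA3 and ISL1, all below control, are also among the noradrenergic markers above, so the counts of these lists are not independent. At an unadjusted p under 0.05, 2 were lower (5.57% of all genes). INSM1, a zinc-finger factor of neuroendocrine differentiation, read 6.73 and 6.87 in knockdown and 7.21 and 7.28 in control, a difference of -0.45 ± 0.063 (SE; limma, adjusted p = 0.37), and its other probe set was at -0.030. HAND1, a helix-loop-helix factor of sympathetic neurons, read 8.45 and 8.58 in knockdown and 8.78 and 8.72 in control, a difference of -0.23 ± 0.062 (SE; limma, adjusted p = 0.60). PHOX2A, a homeodomain factor of the noradrenergic lineage, was at -0.086 with overlapping arrays, and SP1 and SP3, which bind GC boxes, were at -0.032 and 0.017. PHOX2A, SP1 and SP3 were picked after their values were seen.

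**Figure D4:**
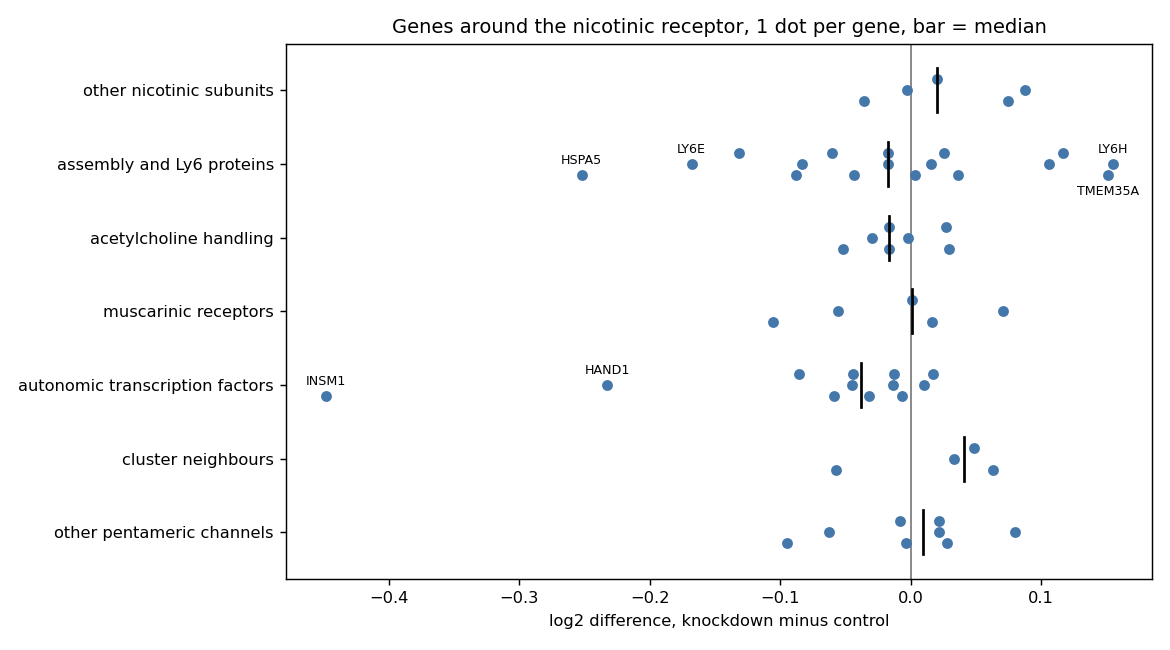
Knockdown minus control (log2) of the 58 measured genes in 7 lists, 1 dot per gene at its highest-mean probe set, with a bar at each list's median; dots are spread vertically only for legibility. INSM1 at -0.45 lies farthest from 0, and all list medians lie between -0.038 and 0.041.

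Of the genes that flank the cluster on chromosome 15, 4 were measured, of which 1 was below control and 3 above, and the median stood at 0.041. HYKK, a kinase gene on the CHRNA5 side, was at -0.057 and CTSH, a lysosomal protease gene on the CHRNB4 side, at 0.063 (limma, adjusted p = 0.86 and 0.81), and the sign of HYKK turned with 1 array left out (0.0036 without knockdown replicate 1). Acetylcholine synthesis, transport and breakdown genes had a median of -0.017 over 7 genes, with the cholinesterase gene BCHE at -0.052 and the collagen tail gene COLQ at -0.029 (limma, adjusted p = 0.89 and 0.94). The vesicular transporter SLC18A3 and the synthetic enzyme CHAT, chosen after their values were seen, were at 0.027 and -0.0019.

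Muscarinic receptors, which respond to acetylcholine through G proteins, had a median of 0.00060 over 5 genes. CHRM3 read 11.04 and 11.16 in knockdown and 11.18 and 11.23 in control, a difference of -0.11 ± 0.059 (SE; limma, adjusted p = 0.70), with 5 of its 6 probe sets below control. CHRM2 was at 0.071 (limma, adjusted p = 0.83). Of 8 other channels of the same architecture, gated by serotonin, glycine or zinc, 4 were below and 4 above control, with HTR3A at -0.095 and HTR3B at 0.080 (limma, adjusted p = 0.80 and 0.76). Of the genes of these lists given with a value or a list median above, CHRNA10, CHRNE, SP1, SP3, CHRM3 and HTR3A had probe sets on both sides of control.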

How the data were processed

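Total RNA of 4 samples was amplified, labelled with biotin and hybridised, each to its own Affymetrix array. The authors deposited log2 values per probe set. RMA (background correction, quantile normalization and summary over probes) with R 3.0.1 was used, per the submitters' processing notes, which give no settings here. Of 54675 probe sets, 62 controls were left out. Genes came from the platform annotation, with 41091 probe sets of 1 gene. No detection calls were used, and the number of arrays limits the precision. Sequences came from RefSeq (GRCh38.p14), with 5 members matched.

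Knockdown minus control was fitted with limma 3.58.1 in R 4.3.3 (lmFit, eBayes, no covariates) with Benjamini-Hochberg adjustment over all tested probe sets, two-sided, and tested on simulated data. Percentiles are ranks within an array. Members and lists were chosen with earlier results of these data known. Beside the members and TSPAN8, the rule named the 2 genes of smallest p per list and the 3 nearest profiles. Other genes were picked after their values were seen. Alternatives were other normalizations, variance models, filters, gene summaries, a replicate block and leaving out each array. Figures were made with matplotlib 3.10.9 under Python 3.11.15.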

Additional observations from a re-analysis of the deposited data

How the results depend on the processing

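CHRNA3 stayed below control at its 3 probe sets under every alternative run, from -0.25 to -0.16 with 1 array left out and from -0.23 to -0.17 otherwise. As its arrays did not overlap, leaving out 1 array could not turn the sign. The replicate block, variance models and filters leave each remaining difference unchanged, so only the other normalizations could have moved the sign. Of the other sets, CHRNA2, CHRNA5, CHRNB1, CHRNB2 (206635_at), CHRNB3 (207859_s_at) and CHRNB4 changed sign with some array left out, and CHRNB1 also under another alternative. The median of the nicotinic sets was -0.050 after median centring and -0.088 among sets above the median signal, and ran from -0.085 to 0.0064 with 1 array left out. Median centring shifts every difference by the same amount. The signal filter keeps 8 of the 13 sets, 3 of them from CHRNA3, with their differences unchanged. Without sets whose names end in _s_at or _x_at, 1 nicotinic set was lower at an unadjusted p under 0.05 (limma, 4.09% of all sets). The other 2 CHRNA3 sets are left out by construction. After median centring that count was 4, through CHRNB2 at 241389_at, while the share over all probe sets rose from 4.12% to 5.76%. CHRNB2 at 241389_at was at -0.13 after median centring and at -0.16 without knockdown replicate 2. Nothing is read from these counts. No nicotinic set passed over all probe sets in any fit. With 1 array left out, the count over the whole array ran from 1 to 1026, with 1026 without knockdown replicate 2 and 25 without knockdown replicate 1, and the count among the 58 genes of the 7 lists from 0 to 4. Such fits take the spread of the lone array from the opposite group. The 4 without knockdown replicate 2 were TMEM35A, HSPA5, HAND1 and INSM1, and the 1 without knockdown replicate 1 was INSM1. With the replicate number as a block, 0 probe sets passed and TSPAN8 was at -1.27 with an adjusted p of 0.16 (limma). Deviations of equal replicate numbers correlated at 0.051, from 2 pairs that no label pairs. Why the remaining values moved is a cause that was not tested.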
